A study of Homo sapiens with 18 samples.

Results

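The amino acid and creatine transporters described here are the genes whose symbols belong to 7 families of solute carriers (SLC1, SLC3, SLC6, SLC7, SLC36, SLC38 and SLC43). A gene was included when it had 10 or more counts in at least 3 of the 18 samples, which left 48 of the 63 symbols of these families, out of 23106 genes counted. Of the 15 symbols left out, 5 had no count in any sample and the highest count of the others was 25. The 48 members were 44 transporters and 4 genes that share only the naming pattern: the copies SLC6A10P, SLC7A5P1 and SLC7A5P2, and SLC7A6OS, which lies opposite SLC7A6. PolyA+ RNA was sequenced from HKC-8, RCC4 and HepG2 cells, in normoxia and in hypoxia, with 3 samples in each of the 6 groups. HKC-8 is labelled as a cell line of the kidney proximal tubule, RCC4 as a kidney cancer line and HepG2 as a liver cancer line. The RCC4 samples, normoxic and hypoxic alike, are labelled RCC4+VHL, meaning that this VHL-deficient line carried VHL again. The labels give hypoxia as 0.5% oxygen for 16 h for HKC-8 and HepG2 cells and as 1.0% for 24 h for RCC4 cells. The study's text gives 1 common exposure for the RNA-seq of every line, and for HKC-8 cells in hypoxia the sample titles read 0.1%. All groups were grown in DMEM with fetal bovine serum, and each line is a single established line.

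Amino acids cross the plasma membrane through carriers, many of which take up substrate with sodium or exchange one amino acid for another. The exchangers LAT1 and xCT are light subunits (SLC7A5 and SLC7A11) that reach the membrane only when bound to the heavy subunit 4F2hc (SLC3A2). Sodium-coupled carriers such as SNAT1 and SNAT2 (SLC38A1 and SLC38A2) and the glutamine carrier ASCT2 (SLC1A5) load the cell with the substrates that the exchangers trade. Cells short of amino acids raise several of these genes through the transcription factor ATF4, and cells short of oxygen stabilise the HIF transcription factors, which bind the core sequence RCGTG. The creatine carrier SLC6A8 supplies cells that do not make enough creatine of their own, and the kidney tubule and the liver are the main sites of creatine synthesis.

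Stretches around the start sites of 6 members are printed because these members changed in hypoxia in at least 1 line and, except SLC6A8, carried the letters searched for. RefSeq windows on GRCh38.p14, from 250 bases before to 50 bases after a start site, were matched by symbol for 35 of the 48 members, with 53 windows in all. The core HIF letters were searched as ACGTG on either strand and as GCGTG on either strand, and letters of the site that ATF4 binds with C/EBP proteins were searched as TGATGNAA on either strand. A palindromic CACGTG counts as ACGTG on each strand at neighbouring positions. The first 4 stretches run from 50 bases before to 50 after a start site of SLC1A4 (chr2:64989349-64989448, plus strand), SLC38A1 (chr12:46266467-46266566, minus strand), SLC7A1 (chr13:29595639-29595738, minus strand) and SLC3A2 (chr11:62881649-62881748, plus strand). The stretch of SLC7A5 holds 100 bases from base -200 on (chr16:87869608-87869707, minus strand), and that of SLC6A8 is the whole window (chrX:153687676-153687975, plus strand). Each reads 5′ to 3′ along its gene, and capitals mark the letters that matched.
SLC1A4: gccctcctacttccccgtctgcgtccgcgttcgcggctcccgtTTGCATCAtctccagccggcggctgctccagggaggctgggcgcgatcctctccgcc
SLC38A1: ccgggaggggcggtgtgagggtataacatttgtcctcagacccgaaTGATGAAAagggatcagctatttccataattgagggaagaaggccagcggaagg
SLC7A1: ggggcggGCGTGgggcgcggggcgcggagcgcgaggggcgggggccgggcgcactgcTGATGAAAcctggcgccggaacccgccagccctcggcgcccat
SLC3A2: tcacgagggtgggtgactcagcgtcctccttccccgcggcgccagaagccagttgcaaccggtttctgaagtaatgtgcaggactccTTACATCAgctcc
SLC7A5: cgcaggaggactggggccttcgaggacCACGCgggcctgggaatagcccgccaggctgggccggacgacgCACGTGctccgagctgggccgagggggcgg
SLC6A8: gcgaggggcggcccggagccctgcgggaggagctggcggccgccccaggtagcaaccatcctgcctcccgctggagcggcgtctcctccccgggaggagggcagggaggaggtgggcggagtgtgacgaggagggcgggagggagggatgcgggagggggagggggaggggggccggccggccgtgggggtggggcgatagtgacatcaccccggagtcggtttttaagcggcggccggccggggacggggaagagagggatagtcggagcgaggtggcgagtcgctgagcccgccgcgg
In these stretches the 8 letters of TGATGNAA lay from base -7 to 1 in SLC1A4, from -4 to 4 in SLC38A1, from 8 to 15 in SLC7A1 and from 38 to 45 in SLC3A2. The SLC7A1 stretch also held GCGTG from -43 to -39. SLC1A4, SLC38A1 and SLC3A2 each had at least 1 further window, not printed, without TGATGNAA. These windows held ACGTG and GCGTG for SLC1A4 and SLC38A1, and GCGTG for SLC3A2. The SLC7A5 stretch held GCGTG on the opposite strand from -173 to -169 and a palindrome with ACGTG from -130 to -125. The SLC6A8 window held none of the 3 motifs. TGATGNAA was present in 6 of the 53 member windows (11.3%), those of SLC1A3, SLC1A4, SLC1A5, SLC38A1, SLC3A2 and SLC7A1, against 3.62% of all 35116 windows. ACGTG was present in 26.4% of member windows and 21.4% of all windows, and GCGTG in 54.7% and 36.5%. These matches describe the letters only, and binding was not examined.

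The counts summed to between 40915980 and 97984260 per sample, with the deepest samples in HKC-8 cells. Depth and cell line moved together and cannot be told apart in comparisons between lines. VEGFA, a standard hypoxia-induced gene, rose in all 3 lines, with a log2 fold change of 1.72 (HKC-8), 0.87 (RCC4) or 1.38 (HepG2). CA9 and EGLN3 rose in HKC-8 (4.92 and 2.38) and HepG2 cells (8.45 and 5.30) and were too low to be tested in RCC4 cells. All 12 liver markers examined exceeded 1 CPM (the count scaled to a common library size, with TMM factors) in HepG2 cells. Of 11 markers of the proximal tubule, 4 did so in normoxic HKC-8 cells, where LRP2, CUBN, AQP1 and SLC34A1 did not, 7 in RCC4 cells and 5 in HepG2 cells. Their summed level in normoxia was 161 to 202.3 CPM (HKC-8), 725.9 to 755.9 CPM (RCC4) and 306.5 to 321.5 CPM (HepG2), so their sum was lower in the line labelled as proximal tubule than in the liver line. The samples are called replicates below, but nothing in the labels says that they were separate cultures, so p-values measure only the spread between these samples, which may be technical. In bulk RNA, fewer cells expressing a gene and less RNA per cell cannot be told apart.

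In normoxia each line drew most of its transporter mRNA from a few genes. Levels between genes are compared as RPKM, the CPM after TMM scaling divided by the transcript length in kilobases. In HKC-8 cells the highest levels were those of SLC7A5 (145.1 ± 9.49 RPKM, SD, n = 3), SLC38A2 (126.8 ± 7.46) and SLC3A2 (113.6 ± 8.08). In RCC4 cells they were SLC7A5 (197.1 ± 12.3), SLC3A2 (154.9 ± 5.58) and SLC1A5 (124.8 ± 1.80). In HepG2 cells SLC38A2 led with 277.2 ± 23.9 RPKM, ahead of SLC7A5 (137.7 ± 5.99) and SLC3A2 (131.1 ± 7.75), which lay within their spread of each other. The LAT1 light subunit, its heavy subunit and the sodium-coupled SNAT2 were thus among the leading genes of every line, as the plot of RPKM by group shows. On the CPM scale the 3 members with the most counts held 50.02% (RCC4) to 55.1% (HKC-8) of the counts of all members.

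**Figure D1:**
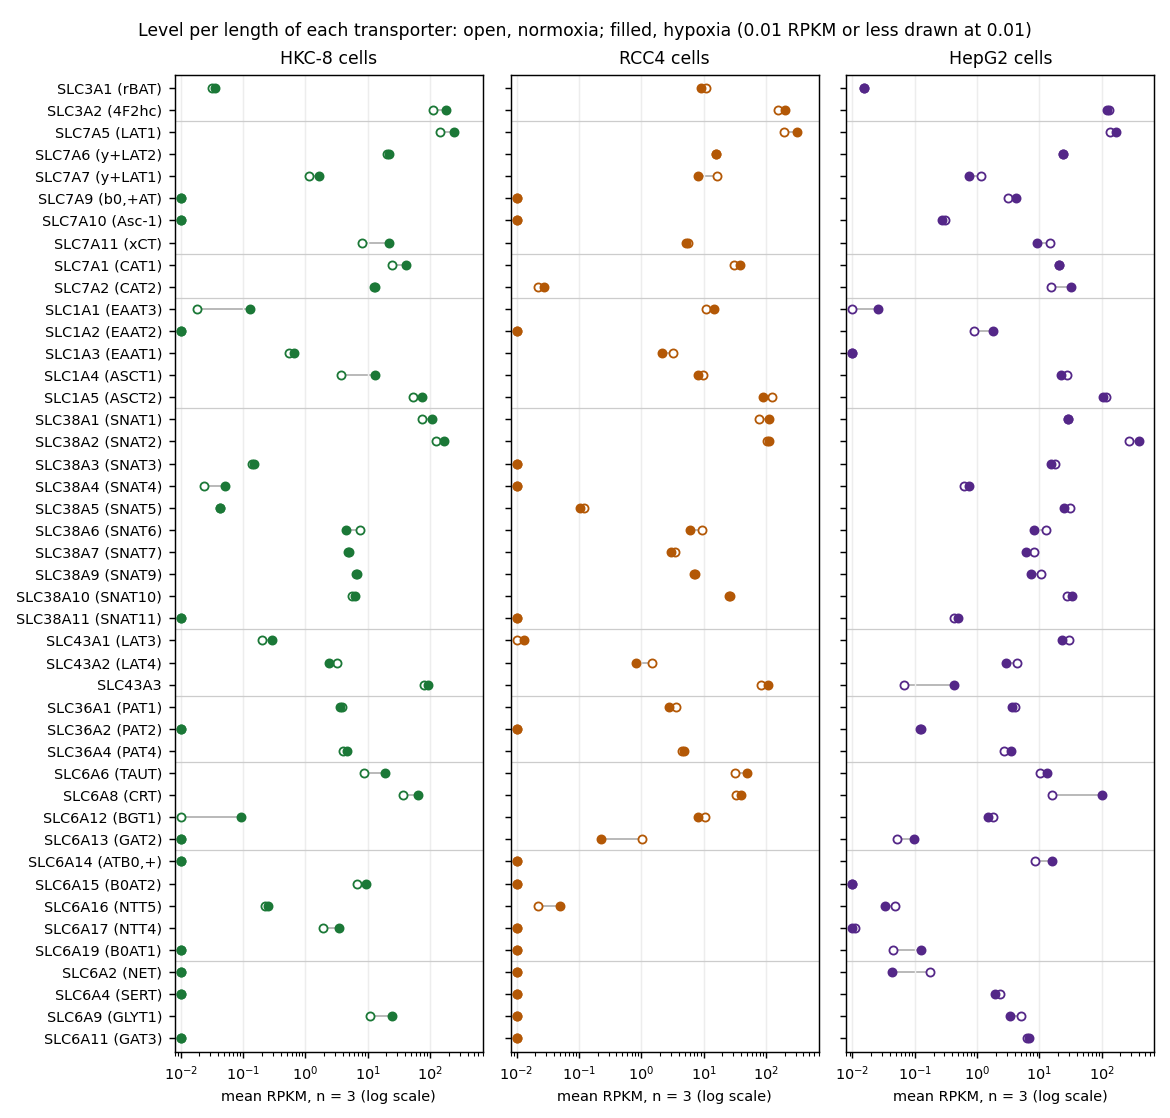
Mean RPKM (horizontal log axis, n = 3, values of 0.01 or less drawn at 0.01) of each of the 44 transporters (rows, grouped by role) in HKC-8, RCC4 and HepG2 cells, with open points for normoxia and filled points for hypoxia. SLC7A5, SLC3A2, SLC38A2 and SLC1A5 lie far right in every line (54.0 to 395.2 RPKM), while many SLC6 carriers sit at the left edge in 1 or more lines.

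Of 47 members tested between normoxic lines, 20 were at least 2-fold higher (42.6%, against 26.3% of all genes tested) and 9 at least 2-fold lower (19.1%, against 20.8% of all genes) in HepG2 than in HKC-8 cells, at an adjusted p under 0.05. Between RCC4 and HKC-8 cells 12 were higher in RCC4 (25.5%, against 23.2%) and 11 lower (23.4%, against 23.2%). Between HepG2 and RCC4 cells 23 were higher in HepG2 (48.9%, against 28.1%) and 10 lower (21.3%, against 21.5%). Of these 6 shares 4 lay near that of all genes, and the 2 above it were those higher in HepG2 cells. Some members, such as SLC6A14 and SLC7A9, reached 10 counts in HepG2 samples only, and SLC6A15 did so in HKC-8 samples only. These entered the set through the line where they are high, so the shares cannot be read as a result about the members. With at least 10 counts required in every sample, the numbers were 4, 2, 5, 2, 6 and 4 in the same order. Among the highly expressed members, SLC38A2 was 1.15 ± 0.08 (log2, SE) higher in HepG2 than in HKC-8 cells (adjusted p = 1.48e-08), and SLC38A1 was lower by the same comparison (-1.32 ± 0.09, adjusted p = 1.17e-08). SLC1A4 (ASCT1, a carrier of alanine, serine and cysteine) was 2.92 ± 0.17 higher in HepG2 than in HKC-8 cells and 1.43 ± 0.16 higher in RCC4 than in HKC-8 cells (adjusted p = 1.08e-09 and 1.60e-06). SLC6A6, the taurine carrier, was 1.88 ± 0.07 higher in RCC4 than in HKC-8 cells (adjusted p = 2.37e-11). SLC6A8 was lower in HepG2 than in HKC-8 cells (-1.18 ± 0.10, adjusted p = 9.07e-08), and did not differ past the threshold between RCC4 and HKC-8 cells (-0.12 ± 0.10, adjusted p = 0.276).

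Several members were detected in 1 line. SLC6A14, a broad sodium- and chloride-coupled carrier, had 1476 to 2095 counts in normoxic HepG2 samples and none in any HKC-8 or RCC4 sample. SLC6A15, a carrier of branched-chain amino acids and proline, had 2713 to 2736 counts in normoxic HKC-8 samples and none in RCC4 or HepG2 samples. A count of 0 allows up to 3 counts, or 0.0306 to 0.0733 CPM depending on the sample, and covers counting error only. SLC3A1, the heavy subunit of the renal cystine and dibasic amino acid exchanger, was at 32.0 ± 2.04 CPM in normoxic RCC4 cells and had at most 14 counts in any HKC-8 or HepG2 sample. Its light subunit SLC7A9 had no count in RCC4 cells and stood at 5.50 ± 0.28 CPM in normoxic HepG2 cells, so the subunits of this pair were in different lines. SLC43A3, an SLC43 member known as a nucleobase carrier, had 169.3 to 249.8 CPM in normoxic HKC-8 and RCC4 samples and at most 0.272 CPM in normoxic HepG2 samples.

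Hypoxia moved the members mostly upward in HKC-8 cells and in both directions in the other lines. In HKC-8 cells 34 members were tested, of which 14 rose (41.2%, against 11.2% of all genes tested) and 1 fell (2.94%, against 9.12%). The median log2 fold change of these 34 was 0.45, and that of all genes tested was 0.00. In RCC4 cells 28 were tested, of which 8 rose (28.6%, against 25.9% of all genes) and 12 fell (42.9%, against 24.2%), with a median of -0.03. In HepG2 cells 40 were tested, of which 13 rose (32.5%, against 19.9%) and 13 fell (32.5%, against 19.2%), with a median of -0.01. A change of at least 2-fold upward was reached by 5 members (HKC-8), none (RCC4) or 6 (HepG2), and downward by 0, 2 and 1 in that order. Among all genes tested, 536 of 13536 (HKC-8), 265 of 12811 (RCC4) and 563 of 13623 (HepG2) rose at least 2-fold. In the same order, 31, 130 and 76 fell at least 2-fold. With the replicate number as a block, which pairs the HKC-8 samples, 16 members rose in HKC-8 cells, SLC43A3 and SLC7A7 joining the 14, and 3 fell, SLC43A2 (-0.42, adjusted p = 0.00933) and SLC7A6OS (-0.32, adjusted p = 0.0429) joining SLC38A6. Members too low in a line to pass its filter were left untested there. In HepG2 cells SLC6A19, which rose, and SLC6A2, which fell, entered the set only through the oxygen group where they are high. Their places in these counts are therefore no independent result about the members.

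Of the 23 members tested in all 3 lines, SLC6A6, SLC6A8 and SLC7A5 rose in each and SLC38A6 fell in each. SLC3A2, SLC38A1, SLC7A1 and SLC1A1 rose in both kidney lines. SLC1A4, SLC1A5, SLC6A9 and SLC7A11 rose in HKC-8 cells and fell in at least 1 other line. The summed level of all members went from 3484 ± 36.2 to 5285 ± 33.1 CPM in HKC-8 cells. In RCC4 cells it went from 4124 ± 17.7 to 4928 ± 60.7 CPM, and in HepG2 cells from 4243 ± 257.4 to 4971 ± 93.0 CPM, with no overlap between oxygen levels in any line. The fold changes are drawn by role for the 44 transporters.

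**Figure D2:**
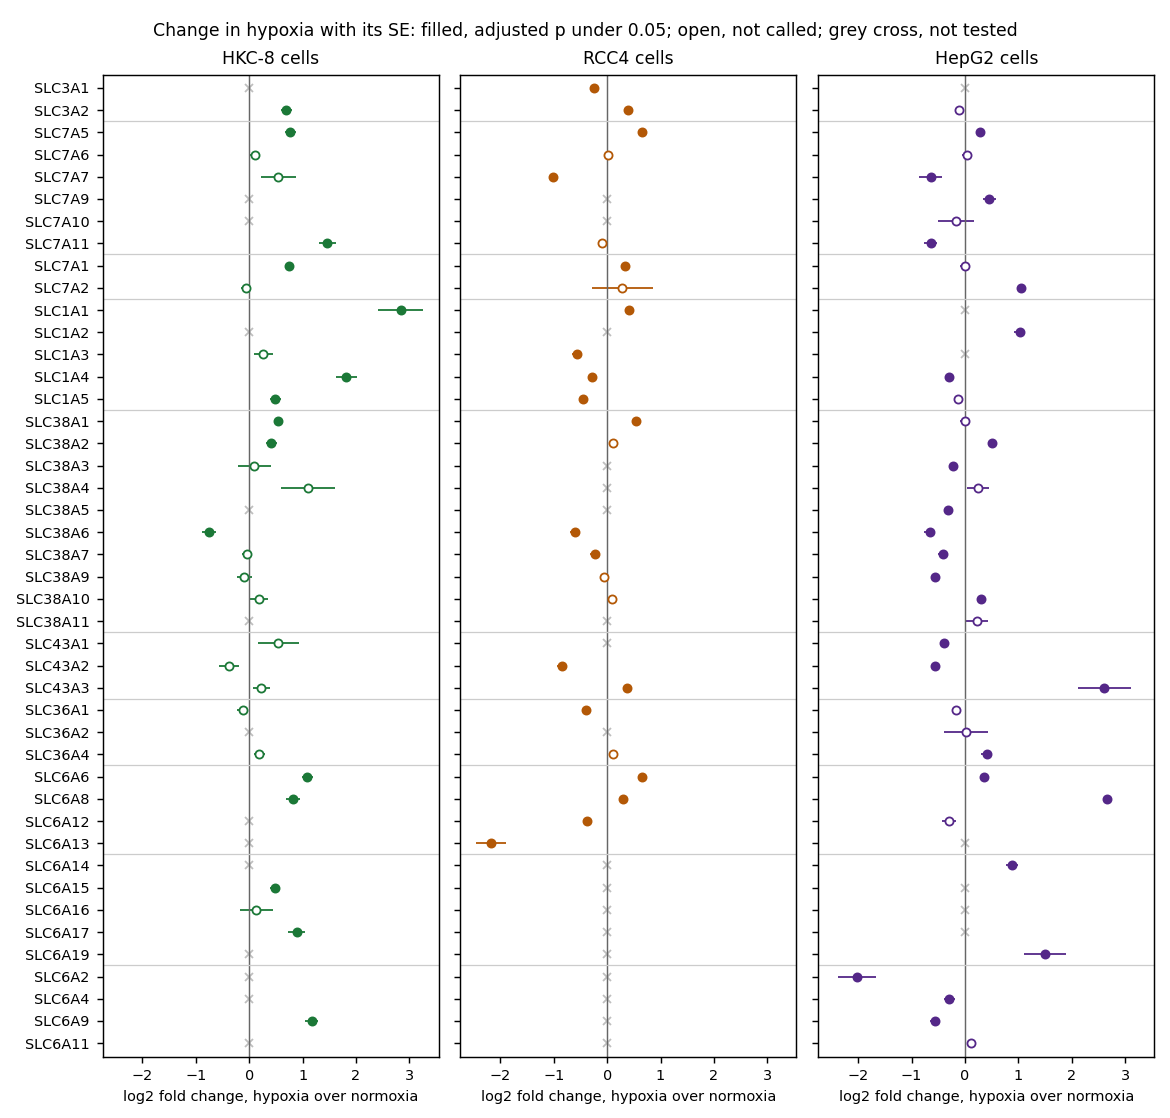
Hypoxic log2 fold change (horizontal axis) of each transporter (rows, ordered by role) in HKC-8, RCC4 and HepG2 cells, with bars of 1 SE, filled points where the adjusted p is under 0.05 and a grey cross where a gene was not tested. SLC1A4 and SLC7A11 lie right of 0 in HKC-8 cells (1.82 and 1.46) and left of it in HepG2 cells (-0.30 and -0.64).

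The creatine transporter SLC6A8 (chrX:152953381-152962043 on GRCh37) rose in all 3 lines, with its largest fold change in HepG2 cells. Its level in HepG2 cells was 65.6, 61.9 and 59.0 CPM in normoxia and 398.3, 383.9 and 391.0 CPM in hypoxia. In HKC-8 cells it was 145.1, 165.4 and 117.5 CPM in normoxia and 233.7, 284.6 and 236.7 CPM in hypoxia. In RCC4 cells it was 127.9, 134.6 and 127.7 CPM and 159.7, 162.7 and 153.9 CPM. Every hypoxic sample lay above every normoxic one in each line, and HepG2 cells went from the lowest normoxic to the highest hypoxic level of the 3 lines. The log2 fold change was 2.65 ± 0.06 in HepG2 cells (6.29-fold, adjusted p = 3.06e-12), 0.82 ± 0.13 in HKC-8 (1.77-fold, adjusted p = 0.00403) and 0.29 ± 0.04 in RCC4 cells (1.23-fold, adjusted p = 6.88e-07). SLC6A10P, a copy of SLC6A8 elsewhere in the genome, had 16, 17 and 20 counts in normoxic and 126, 128 and 118 counts in hypoxic HepG2 samples (log2 fold change 2.85 ± 0.23, adjusted p = 5.02e-07). Reads of so similar a pair can be assigned to either gene, so the value of the copy is uncertain.

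The taurine transporter SLC6A6, which also serves as an osmolyte carrier, rose in all 3 lines, with its largest fold change in HKC-8 cells. It stood at 55.8, 60.8 and 55.3 CPM in normoxic and 135.9, 104.9 and 124.3 CPM in hypoxic HKC-8 samples (log2 fold change 1.09 ± 0.10, adjusted p = 0.000245). In RCC4 cells it went from 212.4, 208.2 and 205.6 CPM to 342.9, 319.3 and 322.9 CPM (0.66 ± 0.04, adjusted p = 2.36e-13). In HepG2 cells it went from 64.0, 64.4 and 74.1 CPM to 83.0, 87.4 and 87.9 CPM (0.35 ± 0.07, adjusted p = 0.00112). The hypoxic samples were above the normoxic ones in every line, and RCC4 cells had the highest level at either oxygen level. Of the carriers of betaine and GABA in the same family, SLC6A13 (GAT2) fell in RCC4 cells from 2.39, 1.75 and 2.69 CPM to 0.330, 0.661 and 0.497 CPM (-2.18 ± 0.28, adjusted p = 8.57e-07), without overlap, and SLC6A12 (BGT1) fell there by 0.39 on the log2 scale (adjusted p = 1.72e-05), a call lost in 1 fit of all 18 samples (adjusted p = 0.247). In HepG2 cells the value of SLC6A12 was -0.30 ± 0.13 (adjusted p = 0.0945). In HKC-8 cells SLC6A12 had 1, 1 and 5 counts in normoxia and 48, 25 and 2 counts in hypoxia, too few for the filter. It passed the test with no filter (3.36, adjusted p = 0.0356) and in the fit of 18 samples (3.31, adjusted p = 0.00236). It also passed without hypoxic or normoxic replicate 3 (adjusted p = 0.0151 and 0.0487), but not without normoxic replicate 1 or 2 (adjusted p = 0.168 and 0.126).

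**Figure D3:**
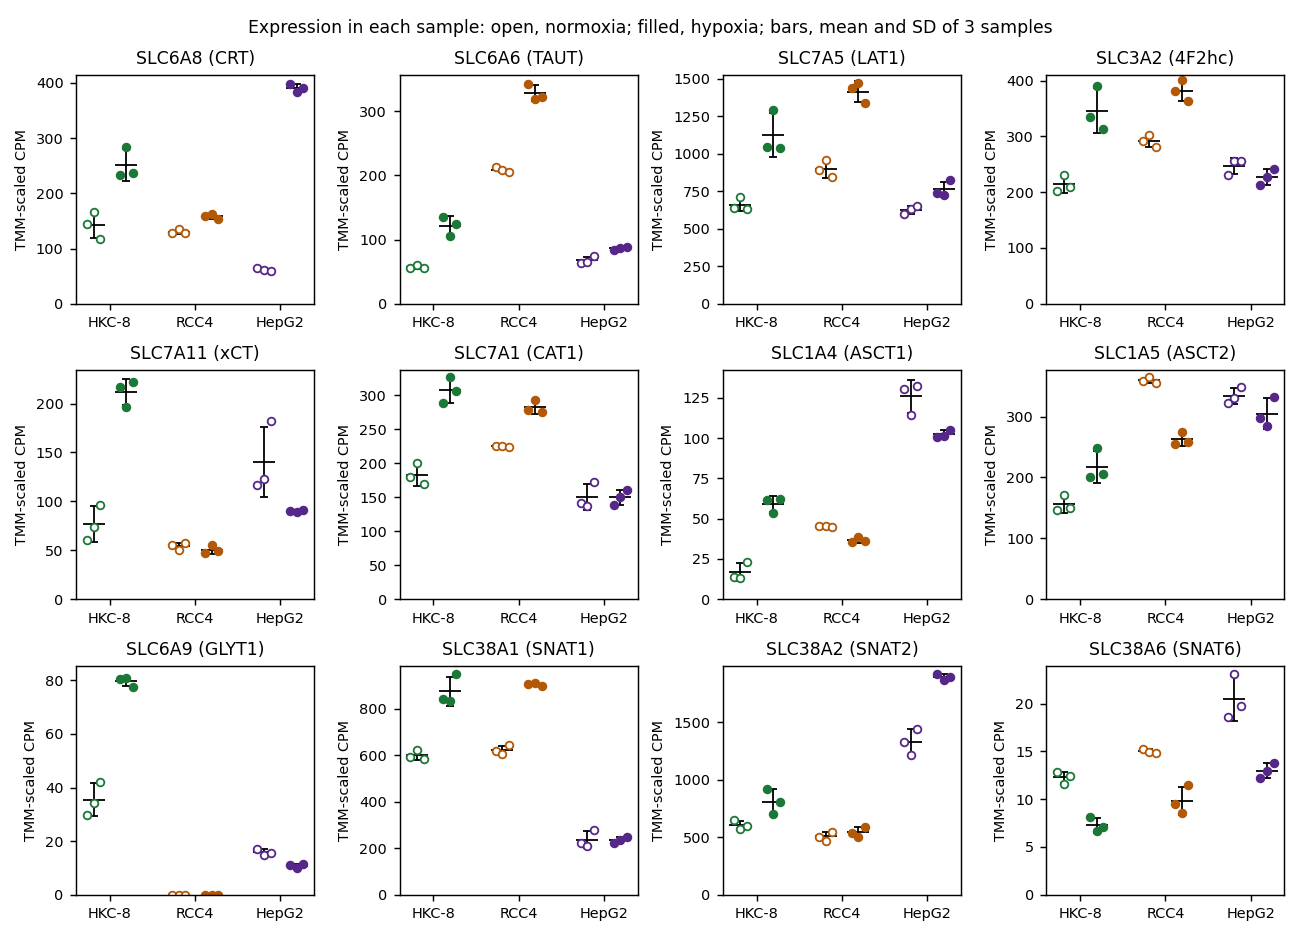
TMM-scaled CPM (vertical axis) of 12 members in each of the 18 samples, with open points for normoxia, filled points for hypoxia and bars for the mean and SD of 3 samples. SLC6A8 rises from 62.1 to 391.1 CPM in HepG2 cells, while SLC7A11 and SLC1A4 rise in HKC-8 cells and are lower in hypoxic than in normoxic HepG2 samples.

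The LAT1 light subunit SLC7A5 and its heavy subunit SLC3A2 both rose in the kidney lines. In RCC4 cells 1 of 4 tested light subunits rose and 1 fell, and 1 of 2 heavy subunits rose and the other fell. Among all genes tested there, 25.9% rose and 24.2% fell. SLC7A5 (LAT1, chr16:87863629-87903113 on GRCh37), which exchanges glutamine for leucine and other large neutral amino acids, went from 639.5, 711.1 and 633.2 CPM to 1044, 1295 and 1040 CPM in HKC-8 cells (0.77 ± 0.11, adjusted p = 0.00216). In RCC4 cells it went from 892.3, 956.4 and 844.9 CPM to 1437, 1472 and 1337 CPM (0.66 ± 0.04, adjusted p = 2.51e-12). In HepG2 cells it went from 598.7, 631.2 and 652.9 CPM to 740.7, 725.9 and 822.3 CPM (0.28 ± 0.07, adjusted p = 0.00482). No hypoxic sample fell within the normoxic range, and the change in HepG2 cells was the smallest of the 3. SLC3A2 (4F2hc), the heavy subunit, went from 202.1, 231.3 and 209.2 CPM to 335.3, 391.0 and 313.2 CPM in HKC-8 cells (0.70 ± 0.10, adjusted p = 0.00263). It went from 292.6, 302.2 and 281.2 CPM to 382.0, 401.0 and 364.2 CPM in RCC4 cells (0.39 ± 0.04, adjusted p = 7.66e-09). In HepG2 cells the normoxic values of 230.3, 255.3 and 255.9 CPM overlapped the hypoxic values of 213.5, 227.7 and 241.3 CPM (-0.12 ± 0.07, adjusted p = 0.177).

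SLC7A11 (xCT), the light subunit that brings in cystine in exchange for glutamate, moved in opposite directions in HKC-8 and HepG2 cells. In HKC-8 cells it went from 60.6, 73.5 and 96.7 CPM to 216.6, 196.6 and 222.2 CPM (1.46 ± 0.15, 2.76-fold, adjusted p = 0.00044). In HepG2 cells it went from 116.7, 122.6 and 181.9 CPM to 89.7, 88.9 and 90.9 CPM (-0.64 ± 0.13, adjusted p = 0.00125). The groups did not overlap in either line, and normoxic replicate 3 was the highest normoxic sample in both. In RCC4 cells the groups overlapped, with 55.6, 50.4 and 57.2 CPM in normoxia and 47.6, 55.8 and 48.9 CPM in hypoxia (-0.09 ± 0.06, adjusted p = 0.195), and the gene passed as fallen without hypoxic replicate 2 (adjusted p = 0.0228). SLC7A7 (y+LAT1), a light subunit that exports cationic amino acids from kidney and intestinal epithelium, fell in RCC4 cells from 33.5, 33.5 and 36.6 CPM to 17.23, 14.64 and 18.96 CPM (-1.02 ± 0.07, adjusted p = 7.06e-11). It also fell in HepG2 cells, from a mean of 2.42 to 1.54 CPM (-0.64 ± 0.21, adjusted p = 0.0271), a call lost when any of 4 samples was left out (adjusted p = 0.0626 to 0.0998). In HKC-8 cells its value was 0.55 ± 0.33 (adjusted p = 0.273), and 0.61 with the replicate block (adjusted p = 0.0144). SLC7A6 (y+LAT2) passed the threshold in no line, with log2 fold changes from 0.01 to 0.11. SLC3A1 fell in RCC4 cells (-0.25 ± 0.06, adjusted p = 0.000993), a call lost in 1 fit of all 18 samples (adjusted p = 0.269). SLC7A9 rose in HepG2 cells (0.46 ± 0.13, adjusted p = 0.011), and that call was lost in the same fit (adjusted p = 0.114) and without hypoxic replicate 3 (adjusted p = 0.0567).

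The cationic amino acid transporters, which carry arginine and lysine, changed one at a time. SLC7A1 (CAT1) went from 180.0, 200.7 and 168.9 CPM to 289.3, 327.3 and 307.0 CPM in HKC-8 cells (0.75 ± 0.09, adjusted p = 0.000997). In RCC4 cells it went from 225.8, 226.1 and 223.4 CPM to 278.3, 293.4 and 275.7 CPM (0.33 ± 0.03, adjusted p = 2.69e-08). In HepG2 cells the ranges of 137.2 to 171.8 CPM in normoxia and 138.9 to 160.3 CPM in hypoxia overlapped (-0.004 ± 0.082, adjusted p = 0.977). SLC7A2 (CAT2) showed the other arrangement, with 117.5, 104.0 and 129.2 CPM in normoxic and 243.0, 249.2 and 231.1 CPM in hypoxic HepG2 samples (1.05 ± 0.07, adjusted p = 1.39e-07). In HKC-8 cells it overlapped, at 96.6 to 101.5 CPM in normoxia and 85.1 to 101.8 CPM in hypoxia (-0.06 ± 0.08, adjusted p = 0.628), and in RCC4 cells it had at most 14 counts in a sample.

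Of the SLC1 family, ASCT1 and ASCT2 rose in HKC-8 and fell in RCC4 cells. SLC1A4 (ASCT1, chr2:65215611-65250999 on GRCh37) went from 13.9, 13.4 and 23.1 CPM to 61.9, 53.6 and 62.2 CPM in HKC-8 cells (1.82 ± 0.20, 3.53-fold, adjusted p = 0.000537). It fell from 45.6, 45.2 and 44.6 CPM to 35.5, 38.8 and 36.4 CPM in RCC4 cells (-0.28 ± 0.05, adjusted p = 5.28e-05). In HepG2 cells it fell from 130.7, 114.2 and 132.7 CPM to 100.9, 101.6 and 105.3 CPM (-0.30 ± 0.06, adjusted p = 0.00258). The oxygen groups did not overlap in any line, and the hypoxic HKC-8 samples lay below the normoxic HepG2 samples. In 1 fit of all 18 samples, the call was lost in RCC4 (adjusted p = 0.141) and HepG2 cells (adjusted p = 0.106). SLC1A5 (ASCT2), the glutamine carrier, went from 146.3, 171.5 and 149.4 CPM to 200.7, 247.8 and 205.0 CPM in HKC-8 cells (0.49 ± 0.11, adjusted p = 0.0135), and the call was lost without normoxic replicate 1 (adjusted p = 0.0733). In RCC4 cells it fell from 359.1, 365.3 and 355.0 CPM to 255.5, 275.2 and 257.7 CPM (-0.45 ± 0.04, adjusted p = 2.76e-10). In HepG2 cells its samples overlapped, from 322.2 to 348.2 CPM in normoxia and from 285.0 to 333.0 CPM in hypoxia (-0.13 ± 0.07, adjusted p = 0.148).

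The glutamate carriers of the SLC1 family were each expressed mainly in 1 line. SLC1A1 (EAAT3), the glutamate carrier of the kidney tubule, was at 37.99, 41 and 42.47 CPM in normoxic and 55.4, 48.1 and 57.0 CPM in hypoxic RCC4 samples (0.41 ± 0.06, adjusted p = 4.30e-06). In HKC-8 cells it went from 5, 7 and 5 counts to 47, 34 and 43 counts (2.84 ± 0.42, adjusted p = 0.00298), which left it below 1 CPM. SLC1A2 (EAAT2) was at 12.2, 9.45 and 10.3 CPM in normoxic and 23.6, 22.3 and 18.9 CPM in hypoxic HepG2 samples (1.02 ± 0.11, adjusted p = 1.09e-05), with at most 2 counts in any other sample. SLC1A3 (EAAT1) fell in RCC4 cells from 12.8, 13.6 and 11.8 CPM to 8.45, 7.63 and 9.65 CPM (-0.57 ± 0.09, adjusted p = 2.68e-05). In HKC-8 cells SLC1A3 was at 1.92 to 2.29 CPM in normoxia and 2.35 to 2.92 CPM in hypoxia (0.27 ± 0.18, adjusted p = 0.321).

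Among the SLC38 carriers, which take up small neutral amino acids with sodium, SLC38A1 and SLC38A2 were the most abundant. SLC38A1 (SNAT1) went from 593.6, 621.3 and 585.2 CPM to 843.3, 832.4 and 947.5 CPM in HKC-8 cells (0.55 ± 0.08, adjusted p = 0.00335). It went from 617.8, 605.4 and 642.5 CPM to 904.8, 911.4 and 898.9 CPM in RCC4 cells (0.55 ± 0.03, adjusted p = 1.24e-12), a 1.46-fold change in each of these lines. In HepG2 cells its groups overlapped, from 210.1 to 280.1 CPM in normoxia and 223.6 to 247.1 CPM in hypoxia (-0.01 ± 0.09, adjusted p = 0.949). SLC38A2 (SNAT2) went from 1331, 1214 and 1443 CPM to 1921, 1867 and 1898 CPM in HepG2 cells (0.51 ± 0.07, adjusted p = 6.06e-05). In HKC-8 cells it went from 646.9, 576.3 and 601.2 CPM to 917.3, 699.0 and 807.7 CPM (0.41 ± 0.11, adjusted p = 0.0274). That call was lost when hypoxic replicate 1 or 3, or normoxic replicate 1 or 2, was left out (adjusted p = 0.0703 to 0.112). In RCC4 cells SLC38A2 overlapped, at 470.8 to 547.6 and 505.6 to 593.0 CPM (0.11 ± 0.05, adjusted p = 0.0709). It passed there with no filter (adjusted p = 0.00307), with the replicate block (adjusted p = 0.00302) and without hypoxic replicate 2 or normoxic replicate 3 (adjusted p = 0.0145 and 0.00749). In HepG2 cells 5 of 10 SLC38 members fell and 2 rose (19.2% and 19.9% of all genes). Of the others, SLC38A6 fell in each line, by 0.75, 0.61 and 0.66 on the log2 scale in HKC-8, RCC4 and HepG2 cells (adjusted p = 0.00432, 7.02e-06 and 0.000199). SLC38A9, the lysosomal carrier that reports arginine to mTORC1, fell in HepG2 cells by 0.56 (adjusted p = 0.000149). SLC38A4 gave the highest value of the role in HKC-8 cells (1.10 ± 0.50, adjusted p = 0.149) on at most 18 counts.

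No SLC43 or SLC36 carrier passed the test in HKC-8 cells, and 3 of 3 SLC43 carriers did so in HepG2 cells. Among all genes, 11.2% rose and 9.12% fell in HKC-8 cells, and 19.9% rose and 19.2% fell in HepG2 cells. SLC43A1 (LAT3), a facilitated carrier of branched-chain amino acids, fell in HepG2 cells from 73.7, 80.0 and 73.1 CPM to 56.7, 59.1 and 57.7 CPM (-0.39 ± 0.06, adjusted p = 0.000343, but 0.0505 in 1 fit of all 18 samples), without overlap, and was below 1 CPM in the other lines. SLC43A2 (LAT4) fell by 0.84 in RCC4 and by 0.57 in HepG2 cells on the log2 scale (adjusted p = 2.01e-07 and 8.13e-05). SLC43A3 rose in RCC4 cells from 220.8, 225.5 and 220.2 CPM to 291.0, 288.3 and 283.5 CPM (0.38 ± 0.03, adjusted p = 1.51e-09, but 0.0831 in 1 fit of all 18 samples). In HKC-8 cells its groups overlapped, at 169.3 to 249.8 and 214.2 to 290.2 CPM (0.23 ± 0.16, adjusted p = 0.332), and it passed with the replicate block (0.23, adjusted p = 0.00955). In HepG2 cells it went from 12, 7 and 4 counts to 40, 26 and 69 counts (2.61 ± 0.50, adjusted p = 0.00105). Of the proton-coupled SLC36 carriers, SLC36A1 fell in RCC4 cells (-0.40 ± 0.07, adjusted p = 2.44e-05) and SLC36A4 rose in HepG2 cells (0.41 ± 0.10, adjusted p = 0.00688).

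The SLC6 carriers of amino acids and neurotransmitters were mostly detected in 1 or 2 of the lines. SLC6A9 (GLYT1), the glycine carrier, went from 29.9, 34.3 and 42.1 CPM to 80.6, 80.7 and 77.5 CPM in HKC-8 cells (1.17 ± 0.12, adjusted p = 0.000383). In HepG2 cells it fell from 17.2, 15.0 and 15.7 CPM to 10.9, 9.90 and 11.5 CPM (-0.57 ± 0.10, adjusted p = 0.000402). The groups were apart in both lines, and RCC4 samples had at most 1 count. In HKC-8 cells SLC6A15 (0.48 ± 0.09, adjusted p = 0.00645) and SLC6A17 (0.89 ± 0.16, adjusted p = 0.00683), carriers of neutral amino acids, rose. In HepG2 cells SLC6A14 rose (0.88 ± 0.12, adjusted p = 7.67e-05), as did SLC6A19, the neutral amino acid carrier of kidney and gut brush borders, from 6, 16 and 8 counts to 26, 35 and 22 counts (1.495 ± 0.393, adjusted p = 0.00866). SLC6A19 had 10 or more counts in 4 samples only, and it entered the set through the hypoxic HepG2 samples, where it is high. Of the 4 neurotransmitter carriers 3 fell in HepG2 cells, where 19.2% of all genes fell. For SLC6A4, the serotonin transporter (-0.29 ± 0.10, adjusted p = 0.0371), the call was lost without any of 4 samples (adjusted p = 0.0689 to 0.184) and in the fit of 18 samples (adjusted p = 0.156). SLC6A2, the noradrenaline transporter, fell in HepG2 cells from 44, 40 and 54 counts to 14, 14 and 5 counts (-2.02 ± 0.36, adjusted p = 0.000607). It entered the set through the normoxic HepG2 samples, where it is high. The copies SLC7A5P1 and SLC7A5P2 had at most 2.10 CPM in any sample and passed no test. SLC7A6OS fell in RCC4 cells (-0.23 ± 0.09, adjusted p = 0.044), a call lost with DESeq2 (adjusted p = 0.0571) and without any of 4 samples (adjusted p = 0.0953 to 0.135). It overlaps SLC7A6 on the other strand, and the strand setting of the counting is not given in the sources used here.

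The responses of HKC-8 and HepG2 cells, which share the labelled exposure, were compared by the interaction term of line with oxygen. Of 46 members tested, 13 differed (28.3%, against 9.30% of all genes), 10 with the lower and 3 with the higher response in HepG2 cells. The largest differences on the log2 scale among members tested in each line were those of SLC43A3 (2.37 ± 0.57, HepG2 minus HKC-8, adjusted p = 0.0161), SLC1A4 (-2.11 ± 0.22, adjusted p = 2.42e-05), SLC7A11 (-2.11 ± 0.23, adjusted p = 4.09e-05) and SLC6A8 (1.83 ± 0.15, adjusted p = 2.96e-06). SLC6A9 differed by -1.74 ± 0.16 (adjusted p = 6.99e-06) and SLC7A2 by 1.11 ± 0.12 (adjusted p = 4.09e-05). The exchanger subunits SLC3A2 (-0.81 ± 0.13, adjusted p = 0.000801) and SLC7A5 (-0.49 ± 0.13, adjusted p = 0.0286) had smaller responses in HepG2 cells. SLC38A2 differed by 0.10 ± 0.14 (adjusted p = 0.712) and SLC7A6 by -0.08 ± 0.13 (adjusted p = 0.786), neither past the threshold. With the replicate block 18 members differed, SLC38A7, SLC38A9, SLC43A1, SLC6A10P and SLC7A7 joining (adjusted p = 0.0215, 0.00936, 0.00151, 0.0338 and 0.00384). Normoxic replicate 3 of HKC-8 cells was the highest normoxic sample for SLC1A4, SLC7A11 and SLC6A9, and without it the differences were -2.44, -2.33 and -1.91.

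**Figure D4:**
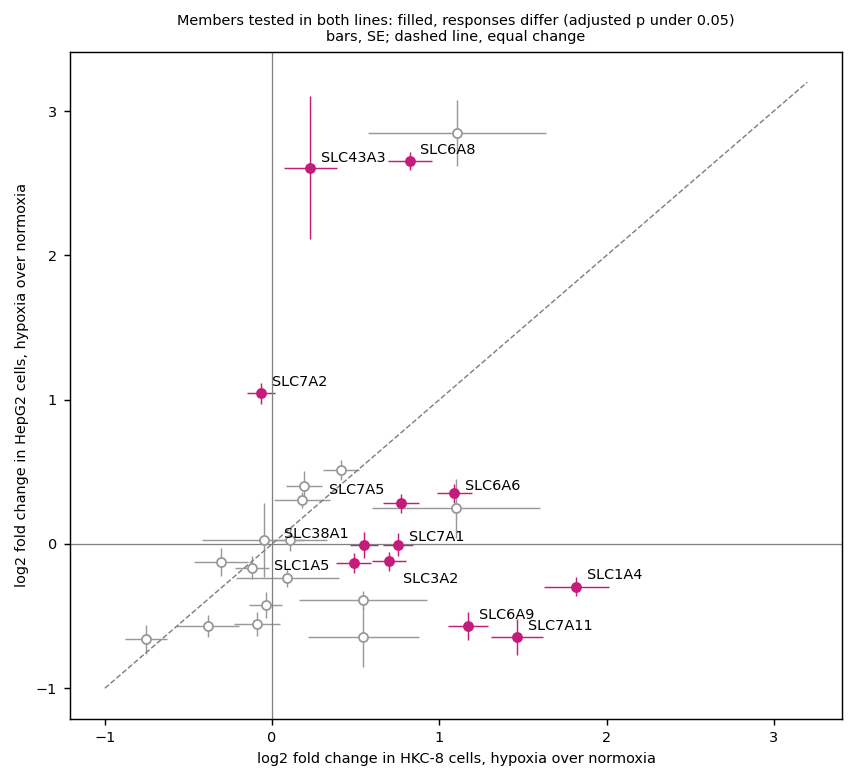
Hypoxic log2 fold change in HKC-8 (horizontal axis) against HepG2 cells (vertical axis) for the 28 members tested in each line, with bars of 1 SE, a dashed line of equal change and filled points for the 12 whose responses differed (adjusted p under 0.05). SLC6A8, SLC7A2 and SLC43A3 lie above the line, and SLC1A4, SLC7A11 and SLC6A9 lie below it, right of 0 and under 0 on the vertical axis.

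Genes of the same pathways were read from lists chosen by function, which share genes, so their counts are not independent. The ATF4 list shares PSAT1, PHGDH, PSPH and SHMT2 with the enzymes of glutamine, glutamate, proline and serine. It shares CHAC1 and CTH with the list of glutathione and cystine use, and SESN2 with that of mTORC1 sensing. Of 23 tested genes of the ATF4 and amino acid response, 22 rose (against 11.2% of all genes) and none fell in HKC-8 cells, with a median log2 fold change of 1.28. In RCC4 cells 5 of 20 rose and 9 fell (25.9% and 24.2% of all genes), and in HepG2 cells 4 of 23 rose and 8 fell (19.9% and 19.2%). With the replicate block, 22 rose and 1 fell in HKC-8 cells. Normoxic replicate 3 of HKC-8 cells stood above the other normoxic samples for list genes chosen here after their values were seen, with ASNS, which makes asparagine, at 82.8, 99.4 and 236.9 CPM and PCK2 at 39.8, 46.0 and 88.8 CPM. Without it 21 of 23 rose and 1 fell, with a median of 1.42, and 16 of 36 members rose and 1 fell. DDR2, a collagen receptor, rose in HKC-8 cells (2.28 ± 0.35, adjusted p = 0.00316). DDIT4, an inhibitor of mTORC1 that is also a hypoxia-induced gene, rose in all 3 lines by 2.43, 2.72 and 2.08. STC2 (2.14, 1.90 and 1.33) and VLDLR (2.20, 0.46 and 1.99) also rose in each. Of the 23 genes tested for interaction, 17 had a lower and none a higher response in HepG2 than in HKC-8 cells. Among all genes tested, 9.30% differed in either direction. Among the 14 members that rose in HKC-8 cells were SLC1A4, SLC7A11, SLC6A9, SLC3A2 and SLC7A1. SLC3A2 and SLC7A1 also rose in RCC4 cells, where 5 of 20 list genes rose and 9 fell. SLC1A4 fell there, SLC7A11 did not pass the test and SLC6A9 was not tested. The part of ATF4 in these changes was not tested.

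Of 6 genes of creatine handling tested in HepG2 cells, 3 rose (against 19.9% of all genes) and none fell, and the other 3 had log2 fold changes from -0.58 to 0.13. CKB, the brain-type creatine kinase, went from 102.3, 92.2 and 93.2 CPM to 559.7, 506.7 and 533.0 CPM (2.48 ± 0.07, adjusted p = 6.94e-12). GATM, the first enzyme of creatine synthesis, rose by 2.29 ± 0.28 in HepG2 (adjusted p = 3.18e-05) and by 0.77 ± 0.12 in HKC-8 cells (adjusted p = 0.00313), and the mitochondrial kinase CKMT2 by 1.35 ± 0.20 in HepG2 cells (adjusted p = 0.000141). Both were low in HepG2 cells, where the mean went from 0.772 to 3.78 CPM for GATM and from 1.14 to 2.91 CPM for CKMT2. In HKC-8 cells 1 of 5 rose and 1 fell, CKMT1B (-1.04 ± 0.28, adjusted p = 0.0315), a near-identical copy of CKMT1A whose counts cannot be separated with certainty. With the replicate block 2 fell there. Among all genes tested in HKC-8 cells, 11.2% rose and 9.12% fell in the main fit. In RCC4 cells neither of the 2 genes tested passed the threshold. CKB and GATM were also the 2 genes of the list, of 7 tested, whose responses differed between HepG2 and HKC-8 cells (9.30% of all genes).

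Genes of glutathione and cystine use fell more often than they rose in RCC4 and HepG2 cells. In HKC-8 cells, where SLC7A11 rose, 3 of 10 rose and 3 fell (11.2% and 9.12% of all genes). CHAC1, which breaks down glutathione, rose by 2.09 ± 0.23 (adjusted p = 0.000537), and CTH, which makes cysteine, by 1.11 ± 0.15 (adjusted p = 0.00199), while GCLM, a subunit of the enzyme that starts glutathione synthesis, fell by 0.99 (adjusted p = 0.00112). In RCC4 cells 7 of 10 fell (24.2% of all genes) and none rose, and in HepG2 cells 6 of 10 fell (19.2%) and none rose. GCLM and CHAC2 fell in all 3 lines.

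**Figure D5:**
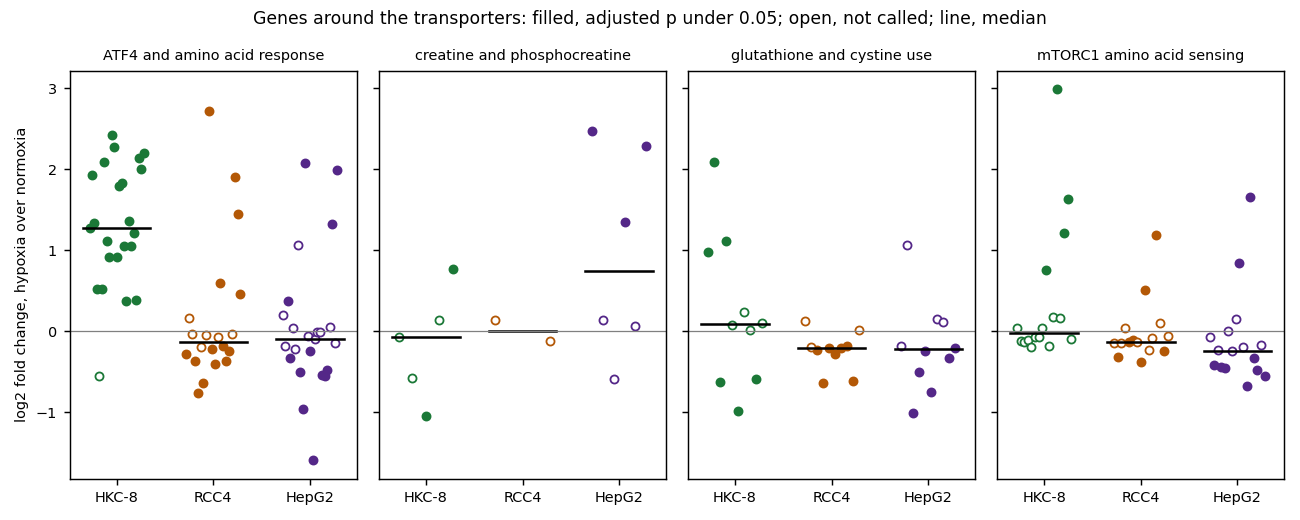
Hypoxic log2 fold change (vertical axis) of each tested gene of 4 pathway lists in HKC-8, RCC4 and HepG2 cells, with filled points where the adjusted p is under 0.05, open points otherwise and a line at the median. The median of the ATF4 list is 1.28 in HKC-8 cells and below 0 in RCC4 and HepG2 cells (-0.13 and -0.10), and the 3 filled points of creatine genes in HepG2 cells lie between 1.35 and 2.48.

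TGATGNAA, the letters searched for ATF4 sites, was present in a window of 5 of the 11 members that rose in HKC-8 cells and had a window (SLC1A4, SLC1A5, SLC38A1, SLC3A2 and SLC7A1). It was present in 1 of the 13 with a window that did not pass the test there (SLC1A3) and in none of the 8 with a window that rose in HepG2 cells. Among members with a window in RCC4 cells, it was present in 3 of 6 that rose and in 3 of 10 that fell (SLC1A3, SLC1A4 and SLC1A5), and in HepG2 cells in 1 of 10 that fell (SLC1A4) and 4 of 12 that did not pass the test. Of the members with a window in HKC-8 cells, ACGTG was present in 4 of the 11 that rose and 9 of the 13 that did not pass. GCGTG was present in 8 of the same 11 and 11 of the same 13. The shares over all windows given above are per window, and no share per gene was taken. SLC6A8 had none of these letters in its window, and SLC6A6 and SLC7A11 had no window.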

How the data were processed

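PolyA+ RNA libraries of HKC-8, RCC4 and HepG2 cells were prepared with ScriptSeq v2 and sequenced by the authors, with 3 normoxic and 3 hypoxic samples per line. Per the submitters' processing notes and the study's methods, reads were trimmed with Trim Galore 0.3.3 and aligned to GRCh37 with TopHat2 2.0.8b and Bowtie 1.0.0. Fragments mapping to several places were removed with SAMtools 0.1.19, which lowers the values of genes with near-identical copies. The values the authors deposited are raw counts per UCSC gene from HTSeq 0.5.4p3 (intersection-strict mode), 1 file per sample. All samples were assigned to groups from their labels, and 0 sample columns were left unused.

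The counts were analysed with R 4.3.3 and edgeR 4.0.16 (filterByExpr, TMM, glmQLFit and glmQLFTest), in each cell line apart, over all genes. P-values were adjusted by Benjamini-Hochberg and called at 0.05, and every adjusted p in the text is from this quasi-likelihood test unless DESeq2 (1.42.0) is named. SEs of log2 fold changes were taken as the absolute change over the root of the quasi-likelihood F. The responses of HKC-8 and HepG2 cells were compared by an interaction term in 12 samples, without RCC4, whose labels give another exposure, and normoxic lines in 1 fit of 9 samples (absolute log2 fold change of at least 1). CPM were TMM-scaled, except in the sum over all members, and RPKM used canonical GENCODE transcript lengths on GRCh37. Promoter windows came from RefSeq.

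The members and lists were chosen with earlier results of these data known. Values in every sample were given for 12 transporters of known central role and for each member changed at least 2-fold at an adjusted p under 0.05. The others were given by range and count, with extremes of a role named. Besides ASNS and PCK2, up to 4 genes per pathway list were named, mostly by size of change. They were not always the genes with the largest change. Replicate numbers in the labels were checked for pairing by the correlation of same-numbered samples' deviations from their group means. These were 0.109, 0.453 and 0.447 in HKC-8 cells, which were taken as paired, but the main fits held no block. Normoxic HKC-8 replicate 1 correlated slightly better with hypoxic replicate 2 (0.116) than with its own number (0.109). The HKC-8 results that use the pairing are those given with the replicate block. Alternatives were DESeq2, median-of-ratios scaling, no filter, 10 counts in every sample, 1 fit of 18 samples, the replicate block and leaving out each sample. The tests were tried on simulated data. With 40915980 to 97984260 counts per sample, a count of 0 allows 3 counts, which covers counting error only.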

Additional observations from a re-analysis of the deposited data

Results flagged for a closer look

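The responses of HKC-8 and HepG2 cells to hypoxia differed in 13 members by the test of the interaction itself, and each value is the log2 fold change in HepG2 minus that in HKC-8 cells. HepG2 cells had the lower response for SLC1A4 (-2.11), SLC7A11 (-2.105), SLC6A9 (-1.74), SLC3A2 (-0.81), SLC7A1 (-0.75), SLC6A6 (-0.74), SLC1A5 (-0.615), SLC38A1 (-0.55) and SLC7A5 (-0.49). They had the higher response for SLC43A3 (2.37), SLC6A8 (1.83) and SLC7A2 (1.11). The betaine and GABA carrier SLC6A12 gave the lowest difference (-3.62, SE 0.93, adjusted p = 0.0232). It rests on HKC-8 counts of 1, 1 and 5 in normoxia and 48, 25 and 2 in hypoxia, which overlap.

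When samples were left out in turn, the call was lost for SLC38A1 without hypoxic HepG2 replicate 1 (adjusted p = 0.0551). It was lost for SLC43A3 without normoxic HepG2 replicate 2 (0.0667) or 3 (0.0582). For SLC6A12 it was lost without hypoxic HKC-8 replicate 1, where the difference was -2.64, without normoxic HKC-8 replicate 1 or 2, or without normoxic HepG2 replicate 2 (adjusted p = 0.0518 to 0.08). For SLC7A5 it was lost without normoxic HKC-8 replicate 1, either of hypoxic HepG2 replicates 1 and 2, or either of normoxic HepG2 replicates 2 and 3 (adjusted p = 0.0574 to 0.0712).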

How the results depend on the processing

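With each sample left out in turn, the members that rose numbered 12 to 16 for HKC-8 (14 with all samples), 8 to 10 for RCC4 (8) and 12 to 13 for HepG2 cells (13). Those that fell numbered 1 to 2 for HKC-8 (1, with 2 reached without hypoxic replicate 2), 10 to 12 for RCC4 (12) and 11 to 13 for HepG2 cells (13). The number that differed between HKC-8 and HepG2 cells ranged from 10 to 17. In 1 fit of all 18 samples, 2 members (HKC-8), 7 (RCC4) and 7 (HepG2) fell, and the cause was not tested. With the replicate block 3 fell in HKC-8 cells. In RCC4 and HepG2 cells the same-numbered samples did not all correlate above 0.1, so the numbers were not taken as a pairing there, although every HepG2 sample correlated best with its own number. The block gave 10 risen and 11 fallen in RCC4 cells, SLC38A2 (0.11, adjusted p = 0.00302) and SLC38A10 (0.09, adjusted p = 0.045) joining and SLC7A6OS leaving (adjusted p = 0.0571), and 13 and 13 in HepG2 cells. With at least 10 counts in every sample, fewer genes are tested, and the members at least 2-fold apart in normoxia were 4 higher and 2 lower (HepG2 against HKC-8), 5 and 2 (RCC4 against HKC-8) and 6 and 4 (HepG2 against RCC4). That filter gave no value for SLC1A1 in HKC-8 cells or for SLC43A3, SLC6A19 and SLC6A2 in HepG2 cells. The values that changed sign were near 0. SLC38A1 in HepG2 cells was 0.000 with the block and from -0.079 to 0.121 with samples left out, positive without hypoxic replicate 1 (0.027) or normoxic replicate 3 (0.121). SLC7A1 there was 0.000 with the 10-count filter and with the block, and from -0.055 to 0.097 with samples left out, positive without the same samples (0.047 and 0.097). The difference for SLC38A2 ran from -0.006 (without hypoxic HKC-8 replicate 2) to 0.200. Of 1077 values of single genes under alternatives, 1009 kept their direction and their side of the threshold. Another scaling moved the median of all genes by at most 0.032 in size. Members with few counts, such as SLC6A12 and SLC1A1 in HKC-8 cells, are limited by depth.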

Other observations

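Of all genes tested, 11.2% rose and 9.12% fell in HKC-8 cells, 25.9% and 24.2% in RCC4 cells and 19.9% and 19.2% in HepG2 cells, and several of the shares given here lie near these. Of 18 tested enzymes of glutamine, glutamate, proline and serine, 6 rose and 2 fell in HKC-8 cells, against 4 and 9 of 16 in RCC4 and 3 and 4 of 18 in HepG2 cells. With the replicate block 8 rose and 2 fell in HKC-8 cells. GPT2, which passes nitrogen between glutamate and alanine, rose in each line (1.52, 0.23 and 0.45 on the log2 scale). PSAT1 and PSPH, enzymes of serine synthesis, rose in HKC-8 cells (1.36 and 1.05) and fell in RCC4 (-0.19 and -0.37) and HepG2 cells (-0.54 and -0.56).

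Of the genes through which mTORC1 senses amino acids, 4 of 16 rose and none fell in HKC-8 cells, 2 of 15 rose and 5 fell in RCC4 cells, and 2 of 16 rose and 7 fell in HepG2 cells. The list holds the member SLC38A9. The GTPases RRAGD (2.99, 1.18 and 1.66) and RRAGA (0.75, 0.51 and 0.85) rose in each line. SESN2, a leucine sensor, rose in HKC-8 cells (1.21) and fell in RCC4 (-0.24) and HepG2 cells (-0.48).

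Of amino acid carriers outside these 7 families, 2 of 12 rose and 2 fell in HKC-8 cells, 1 of 12 rose and 8 fell in RCC4 cells, and none of 14 rose and 3 fell in HepG2 cells by edgeR. With the replicate block 5 fell in HKC-8 cells. This list holds SLC7A6OS, which is no transporter. The histidine carrier of lysosomes SLC15A4 rose in RCC4 (1.32) and HKC-8 cells (0.45), and SLC25A12, a mitochondrial aspartate and glutamate carrier, fell in HKC-8 cells (-0.84).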
